A study of Mus musculus with 15 samples.

Results

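Mitochondrial ribosomal protein genes encode the proteins of the ribosome that works inside mitochondria. They were taken here as every protein-coding gene whose mouse symbol is Mrpl or Mrps followed by a number and an optional letter. Of the 36528 gene identifiers measured, 78 met that rule, 49 with an Mrpl and 29 with an Mrps symbol, and 77 of them had enough counts to be tested. They were followed through 15 libraries of polyadenylated RNA from nests of basal cell carcinoma, a skin tumour driven by Hedgehog signalling, cut by laser from frozen mouse skin. Vismodegib, which blocks the Hedgehog transducer Smoothened, had been given for 28 days to the mice of 5 libraries. Another 5 libraries came from untreated nests negative for the proliferation antigen Ki67, and the last 5 from untreated nests positive for it. All 15 share the genotype K14Cre-ER with Ptch1fl/fl, p53fl/fl and Lgr5GFP: a Cre recombinase driven by the keratin 14 promoter, activated by tamoxifen, removes Ptch1 and Trp53 from keratinocytes, and GFP is tied to Lgr5. The controls thus carry the same deletions as the treated nests, and the sources used here give neither the age of the mice nor the dose. Library numbers within a group follow the order of deposit and carry no pairing. Which animal gave which library is not stated in the labels. Where libraries of a group come from the same mouse, p-values are too small, and some of the spread may be technical.

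The mitochondrial ribosome translates the few proteins that the mitochondrial genome encodes, nearly all of them core subunits of the respiratory chain. Its RNAs are transcribed inside the organelle, but all of its proteins are encoded in the nucleus, made on cytoplasmic ribosomes and imported. Its small subunit decodes the messenger RNA, and its large subunit joins the amino acids and holds the exit tunnel, beside which the new protein enters the inner membrane. Some of its proteins have relatives in bacterial ribosomes, and others are found only in mitochondria.

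Libraries held 6413055 to 10328822 counts in the vismodegib, 4887381 to 7158143 in the Ki67-negative and 4929869 to 8359195 in the Ki67-positive group. Ki67-negative library 5 stood apart, with 19669 genes detected, against 21653 to 23322 in the other 14. Xist exceeded Ddx3y, as in female mice, in vismodegib libraries 1, 2 and 3, Ki67-negative library 5 and Ki67-positive library 5. Keratinocyte and tumour nest markers (Krt14, Krt5, Trp63, Epcam and Gli1) summed to 8100 to 10578 CPM (counts scaled to an equal library size) after vismodegib, 3964 to 6377 CPM in Ki67-negative and 5339 to 6246 CPM in Ki67-positive libraries. Of these 5, Krt14 and Krt5 were called higher and Gli1, a Hedgehog target, lower after vismodegib in both comparisons, and Trp63 and Epcam were not called. The 4 genes of differentiating epidermis (Krt10, Krt1, Krt77 and Lor) summed to 2649 to 3286 CPM after vismodegib, 45.6 to 167 CPM in Ki67-negative and 54.2 to 308 CPM in Ki67-positive libraries. The 4 genes of dendritic and Langerhans cells (Cd207, H2-Aa, H2-Ab1 and Cd74) summed to 684 to 2101, 114 to 421 and 68.4 to 427 CPM in the same order, and all 8 of these genes were called higher after vismodegib in both comparisons. T cell genes summed to 21.3 to 77.7 CPM after vismodegib, 4.36 to 38.0 CPM in Ki67-negative and 7.60 to 25.5 CPM in Ki67-positive libraries, and melanocyte genes, 3 of 4 of them called lower in both comparisons, to 51.8 to 292, 143 to 1080 and 277 to 1370 CPM in the same order. Fibroblast genes (Col1a1, Col1a2, Dcn, Lum and Pdgfra) summed to 290 to 2680 CPM after vismodegib, 1714 to 3067 CPM in Ki67-negative and 1063 to 3974 CPM in Ki67-positive libraries. Against each untreated group 1 of these 5 was called lower. Skeletal muscle genes (Acta1, Ckm, Myh4 and Tnnt3), a source rich in mitochondria, summed to at most 2.02 CPM in the untreated libraries. They had a median of 1.31 CPM after vismodegib, where 1 library reached 92.0 CPM. The part of these markers in the differences given here was not tested. In bulk nests, fewer cells of a type and less RNA per cell cannot be told apart.

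As a family the transcripts were a small part of the RNA, with the highest mean level after vismodegib. The 78 genes took 0.171 to 0.208% of a library's counts after vismodegib, 0.130 to 0.158% in Ki67-negative and 0.139 to 0.183% in Ki67-positive libraries, so the treated and the Ki67-negative ranges did not overlap while the treated and the Ki67-positive ranges did. Summed over the 77 tested members, the level was 1854, 1732, 2124, 2124 and 1908 CPM in vismodegib libraries 1 to 5, against 1510, 1495, 1317, 1592 and 1388 CPM in Ki67-negative and 1792, 1391, 1655, 1693 and 1555 CPM in Ki67-positive libraries. Group means were 1948 ± 173, 1461 ± 108 and 1617 ± 152 CPM (SD, n = 5 each). Every treated library lay above every Ki67-negative one, and the lowest treated library lay below the highest Ki67-positive one. The number of members above their own mean over the 15 libraries was 61, 43, 69, 64 and 59 in the vismodegib libraries, against 21, 29, 13, 28 and 22 in Ki67-negative and 53, 16, 41, 51 and 32 in Ki67-positive libraries. No test was made on these sums, since a score over chosen members supports none.

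**Figure D1:**
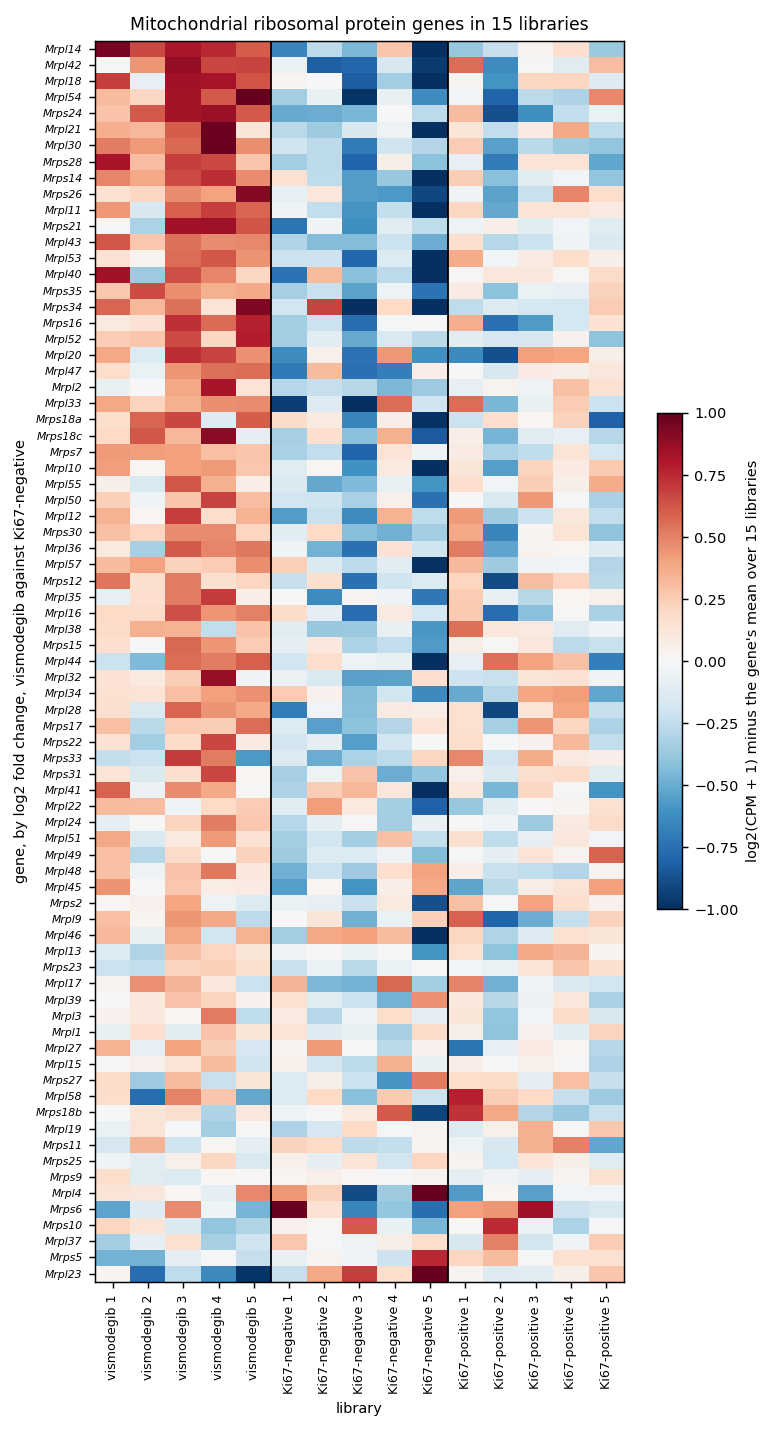
Colour shows log2(CPM + 1) of each tested member minus its mean over the 15 libraries, saturating at the ends of the scale; genes run down by their log2 fold change between vismodegib and Ki67-negative nests, and black lines separate the groups. The 5 vismodegib columns are red for most genes, with 43 to 69 of 77 members above their mean, and the Ki67-negative columns mostly blue, with 13 to 29 above it.

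Levels of different genes were compared per length, with the deposited nRPKM (reads per kilobase of gene model and per library size, adjusted by a size factor of each library). Mrpl52, a large subunit protein found only in mitochondria, was the highest member at 43 ± 8.12 in vismodegib, 26.3 ± 2.57 in Ki67-negative and 28.3 ± 3 in Ki67-positive libraries (nRPKM, SD, n = 5 each). Mrpl33, related to a small protein of the bacterial large subunit, followed at 27.2 ± 2.01 in vismodegib, 17.5 ± 8.83 in Ki67-negative and 21.8 ± 6.24 in Ki67-positive libraries, and Mrpl36, also with a bacterial relative, at 12.9 ± 3.29 in vismodegib, 8.85 ± 2.08 in Ki67-negative and 10.6 ± 2.83 in Ki67-positive libraries. The Mrpl33 ranges of all 3 groups overlapped, and so did those of Mrpl36. At the low end among tested members, Mrps33 had 1.16 ± 0.548 in vismodegib, 0.903 ± 0.231 in Ki67-negative and 1.23 ± 0.266 in Ki67-positive libraries and Mrps18b 0.966 ± 0.143 in vismodegib, 0.983 ± 0.427 in Ki67-negative and 1.06 ± 0.467 in Ki67-positive libraries. Mrpl23, a neighbour of the exit tunnel, was the lowest at 0.149 ± 0.096 in vismodegib, 0.54 ± 0.356 in Ki67-negative and 0.294 ± 0.0579 in Ki67-positive libraries, and RefSeq lists a pseudogene named after it, with which unique alignment may cost it reads. Mrps36, the member left untested, had 0 to 14 counts per library and 3 pseudogenes of its name. Its product is now known as a subunit of the 2-oxoglutarate dehydrogenase complex rather than of the ribosome. The median coefficient of variation of CPM over members was 18.4% after vismodegib, 24.2% in Ki67-negative and 20.3% in Ki67-positive libraries.

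The members are scattered over the genome, on 17 chromosomes, with most on chromosome 11 (11 members) and chromosome 17 (8 members). Mrpl46 at chr7:78775341-78783089 and Mrps11 at chr7:78783131-78792988 stand head to head with 41 bases between them (RefSeq, GRCm38.p6). RefSeq promoter windows of 300 bases, most of each before the start, were found for 69 of the 78 members, with 75 windows in all. The letters CCGGAAG, a core bound by ETS factors such as GABP (nuclear respiratory factor 2), stood on either strand in 26 of the 75 windows (34.7%), against 8.86% of all 32817 windows. GCGCATGCG, the core of the site of nuclear respiratory factor 1, stood in 7 windows (9.33%, against 1.75% of all), and AAGATGGCG, the site of YY1, in 8 (10.7%, against 1.40%). The E-box CACGTG, bound by Myc, was in 7 member windows (9.33%, against 7.15% of all). The letters GGGTGGTC of Gli factors were in 3 (4.0%, against 0.808%), and TATAAA in 5 (6.67%, against 13.6%). Median GC content was 58.7% in member windows and 52.7% in all, and the median number of CG dinucleotides was 21 and 7. The ETS, nuclear respiratory factor 1, YY1 and E-box letters each hold a CG, and the Gli and TATAAA letters hold none. The part of GC and CG content in the motif counts was not tested. Of the 27 windows of members called higher after vismodegib than in Ki67-negative nests, 33.3% held the ETS letters, against 35.4% of the 48 windows of the other members. A match is a run of letters and not a bound site.

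5 windows are shown, for members whose values are given next, with motif letters in capitals: Mrpl43 (chr19:45006393-45006692, minus strand) and Mrpl52 (chr14:54426659-54426958, plus strand) each with 2 ETS cores, Mrps24 (chr11:5707652-5707951, minus strand) with TATAAA on the reverse strand and YY1 letters after the start, Mrpl42 (chr10:95501900-95502199, minus strand) with YY1 letters after the start, and Mrpl30 (chr1:37890227-37890526, plus strand) with none of the 6 motifs searched. Sequences are from RefSeq, GRCm38.p6, 5′ to 3′ along the gene.
Mrpl43: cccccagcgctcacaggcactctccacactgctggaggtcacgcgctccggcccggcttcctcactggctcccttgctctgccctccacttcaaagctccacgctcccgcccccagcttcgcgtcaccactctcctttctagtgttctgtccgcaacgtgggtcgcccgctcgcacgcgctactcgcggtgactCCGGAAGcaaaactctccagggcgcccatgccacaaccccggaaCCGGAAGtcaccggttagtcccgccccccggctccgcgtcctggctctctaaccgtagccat
Mrpl52: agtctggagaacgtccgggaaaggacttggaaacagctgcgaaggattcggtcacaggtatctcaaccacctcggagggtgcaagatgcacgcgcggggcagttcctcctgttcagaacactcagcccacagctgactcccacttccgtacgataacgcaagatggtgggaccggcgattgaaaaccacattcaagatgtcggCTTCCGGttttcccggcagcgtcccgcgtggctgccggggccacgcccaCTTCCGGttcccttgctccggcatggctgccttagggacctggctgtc
Mrps24: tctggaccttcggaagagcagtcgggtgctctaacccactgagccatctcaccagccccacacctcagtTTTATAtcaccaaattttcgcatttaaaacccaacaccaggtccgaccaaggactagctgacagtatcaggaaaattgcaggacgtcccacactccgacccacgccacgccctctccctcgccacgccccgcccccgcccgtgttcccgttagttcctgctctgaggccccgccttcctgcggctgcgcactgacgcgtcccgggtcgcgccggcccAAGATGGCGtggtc
Mrpl42: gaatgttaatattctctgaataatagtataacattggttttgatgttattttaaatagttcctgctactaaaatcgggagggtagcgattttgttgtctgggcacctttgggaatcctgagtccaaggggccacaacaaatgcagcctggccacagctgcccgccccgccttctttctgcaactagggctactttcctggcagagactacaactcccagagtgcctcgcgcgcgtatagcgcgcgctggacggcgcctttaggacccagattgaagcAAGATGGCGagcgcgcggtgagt
Mrpl30: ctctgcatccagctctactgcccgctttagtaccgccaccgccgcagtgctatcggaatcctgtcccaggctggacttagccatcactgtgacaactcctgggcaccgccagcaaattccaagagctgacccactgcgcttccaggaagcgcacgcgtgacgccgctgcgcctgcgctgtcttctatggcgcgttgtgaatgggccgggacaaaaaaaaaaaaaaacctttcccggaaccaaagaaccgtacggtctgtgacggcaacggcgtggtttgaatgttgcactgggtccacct

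Residual nests after vismodegib were first set against untreated Ki67-negative nests, the untreated nests without the proliferation antigen. The Ki67-negative libraries were all deposited after the vismodegib ones, and any batch behind that cannot be told apart from the group in this comparison. Vismodegib and Ki67-positive libraries are mixed in order of deposit. Of the 77 members tested, 27 were higher after vismodegib (35.1%) and 1 was lower, while 49 did not pass the test. Among all 17282 genes tested, 15.4% were higher and 16.5% lower, by the same edgeR quasi-likelihood test at an adjusted p under 0.05. The median log2 fold change was 0.53 over the members and −0.03 over all genes, and 66 members had a positive value and 11 a negative one. Both subunits took part: 18 of 51 large subunit members and 9 of 26 small subunit members were higher. So did both origins, with 16 of 46 members that have a bacterial relative and 11 of 31 that are found only in mitochondria. The changes were moderate, from 1.44-fold to 2.43-fold among the called rises.

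Mrpl14, at chr17:45685722-45698495, encodes a protein on the face of the large subunit that meets the small one, and it had the largest rise. It had 28.2, 22.9, 25.6, 24.4 and 22 CPM in vismodegib libraries 1 to 5, against 8.55, 11.6, 10.1, 17.4 and 2.99 CPM in Ki67-negative and 10.6, 11.9, 14.5, 16 and 10.7 CPM in Ki67-positive libraries. All 5 treated libraries lay above all 10 untreated ones, and Ki67-negative library 5 was the lowest. Means were 24.6 ± 2.43 CPM after vismodegib, 10.1 ± 5.2 CPM in Ki67-negative and 12.7 ± 2.4 CPM in Ki67-positive libraries (SD, n = 5 each; vismodegib against Ki67-negative, log2 fold change 1.28, SE 0.31, adjusted p = 0.00401, edgeR). Mrpl14 overlaps Tmem63b on the other strand, a gene that fell in the same comparison (log2 fold change −0.62, adjusted p = 0.0142, edgeR).

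Mrpl42, at chr10:95480805-95501949, encodes a mitochondria-specific protein of the large subunit. It had 17.6, 24, 32.9, 28.3 and 28.5 CPM in vismodegib libraries 1 to 5, against 16.6, 9.49, 9.69, 15.6 and 8.53 CPM in Ki67-negative and 26.1, 10.9, 17.3, 16 and 21.8 CPM in Ki67-positive libraries. Every treated library exceeded every Ki67-negative one, whereas Ki67-positive libraries 1 and 5 lay among the treated values. The rise over Ki67-negative nests passed the test (log2 fold change 1.13, SE 0.26, adjusted p = 0.00308, edgeR), while the value against Ki67-positive nests was 0.51 with an adjusted p of 0.154 in edgeR. Mrpl18, at chr17:12911345-12917787, a relative of the bacterial protein that binds 5S ribosomal RNA, had 21.6, 12.2, 23.9, 23.7 and 20.6 CPM in vismodegib libraries 1 to 5, against 13.2, 13, 6.87, 9.96 and 4.04 CPM in Ki67-negative and 13.2, 8.2, 15.1, 15.2 and 11.7 CPM in Ki67-positive libraries. Vismodegib library 2 was well under the other treated libraries and within the Ki67-negative range. Mrpl18 rose over Ki67-negative nests (log2 fold change 1.11, SE 0.30, adjusted p = 0.00867, edgeR). It overlaps Tcp1, a chaperonin subunit on the other strand with 21397 counts in all against 1567 for Mrpl18, and Tcp1 also rose (log2 fold change 0.84, adjusted p = 0.00379, edgeR), so without stated strand the reads of the pair cannot be told apart.

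Further rises against Ki67-negative nests were found in large subunit proteins with bacterial relatives. Mrpl21 averaged 24 ± 6.03 CPM after vismodegib, 12.3 ± 4.48 CPM in Ki67-negative and 17 ± 3.37 CPM in Ki67-positive libraries (SD, n = 5 each; log2 fold change 0.97, SE 0.28, adjusted p = 0.0127 against Ki67-negative, edgeR), with its lowest value of 4.64 CPM in Ki67-negative library 5. Mrpl11, which sits at the base of the stalk that recruits translation factors, averaged 21.2 ± 4.57 CPM after vismodegib, 11.2 ± 3.16 CPM in Ki67-negative and 15.5 ± 2.97 CPM in Ki67-positive libraries (log2 fold change 0.91, SE 0.24, adjusted p = 0.00801 against Ki67-negative, edgeR). In the small subunit, Mrps26, found only in mitochondria, averaged 11.3 ± 2.75 CPM after vismodegib, 5.97 ± 2 CPM in Ki67-negative and 8.02 ± 2.44 CPM in Ki67-positive libraries (log2 fold change 0.91, SE 0.29, adjusted p = 0.0244 against Ki67-negative, edgeR), and Mrps21 averaged 10.6 ± 3.83 CPM after vismodegib, 5.64 ± 1.34 CPM in Ki67-negative and 7.06 ± 0.438 CPM in Ki67-positive libraries (log2 fold change 0.91, SE 0.29, adjusted p = 0.0215, edgeR). The Mrps26 call was lost without vismodegib library 5 or Ki67-negative library 3 (adjusted p = 0.0548 to 0.0739, edgeR). It was also lost with the length trend of each library removed, as described for gene length (adjusted p = 0.0674, edgeR). The Mrps21 call was lost without vismodegib library 3 or 4 or Ki67-negative library 1 or 3 (adjusted p = 0.0531 to 0.0655, edgeR). With the length trend removed it was lost as well (adjusted p = 0.114, edgeR).

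Mrpl23 was the 1 member that fell. It had 1.54, 0.474, 1.09, 0.608 and 0.262 CPM in vismodegib libraries 1 to 5, against 1.13, 2.27, 3.03, 1.81 and 5.83 CPM in Ki67-negative and 1.54, 1.29, 1.31, 1.6 and 2.02 CPM in Ki67-positive libraries. The Ki67-negative group reached from 1.13 to 5.83 CPM and overlapped the treated values, and its highest value was in Ki67-negative library 5. The test gave log2 fold change −1.80, SE 0.54, adjusted p = 0.0161 (edgeR), on 173 counts over the 15 libraries. Without Ki67-negative library 5 the log2 fold change was −1.35 and the adjusted p 0.0562, so the call rests on that library. Without that library 23 members were called, all higher, 20 of them among the 27. Without vismodegib library 3, the deepest, 17 were higher and 1 lower. Of all genes, 14.8% were higher in the fit without Ki67-negative library 5 and 12.8% in that without vismodegib library 3.

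**Figure D2:**
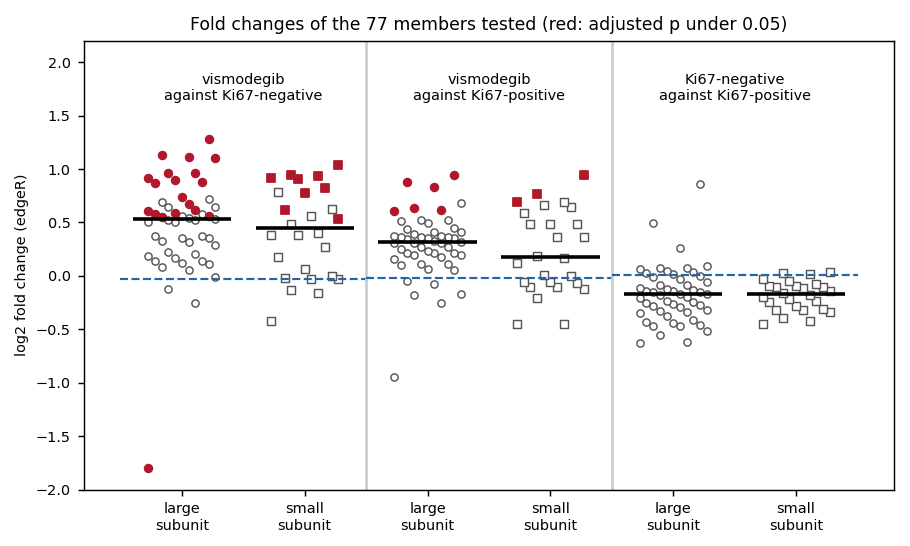
Each point is the edgeR log2 fold change of a tested member, circles for the large and squares for the small subunit, red where the adjusted p is under 0.05; black bars are the medians over members and dashed lines the median of all genes tested. Against Ki67-negative nests 27 members are called above 0 and Mrpl23 below it, against Ki67-positive nests 9 are called above 0, and between the untreated groups none is red and both medians lie at −0.17.

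Set against untreated Ki67-positive nests, the proliferating ones, the same 5 vismodegib libraries gave fewer calls. Of the 77 members, 9 were higher (11.7%) and 0 lower, where 12.6% of all genes tested were higher and 13.4% lower. The share of higher members was thus near that of all genes. No member was lower by edgeR, DESeq2 or voom. In edgeR 14 of the 77 members had an unadjusted p under 0.05, as did 6465 of all 17282 genes tested. The median log2 fold change was 0.31 over the members and −0.02 over all genes, with 61 members positive and 16 negative. The 9 were 6 of 51 large subunit members (Mrpl14, Mrpl16, Mrpl30, Mrpl43, Mrpl52 and Mrpl54) and 3 of 26 small subunit members (Mrps14, Mrps24 and Mrps28). The comparisons share the vismodegib libraries and the same fit, so a call in both is not independent support. The share of all genes called higher in both was not counted. Whether members were called in both more often than other genes was therefore not tested. Values for both are given side by side: 8 members were called higher in both, 19 against Ki67-negative nests alone, Mrpl16 against Ki67-positive nests alone, and 48 in neither.

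In the small subunit, Mrps14, Mrps24 and Mrps28 rose. Mrps14, at chr1:160195215-160201186, lies in the head of the small subunit. It had 49.9, 46.5, 56, 59.4 and 49.2 CPM in vismodegib libraries 1 to 5, against 39.4, 29.3, 23.6, 26.9 and 17.2 CPM in Ki67-negative and 41.9, 26, 32.6, 34.5 and 26.5 CPM in Ki67-positive libraries. The lowest treated library exceeded the highest untreated one, Ki67-positive library 1. Log2 fold changes were 0.94 against Ki67-negative (SE 0.20, adjusted p = 0.00149, edgeR) and 0.69 against Ki67-positive nests (SE 0.20, adjusted p = 0.0135, edgeR).

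Mrps24, at chr11:5703982-5707701, is another protein of the head, near where messenger RNA enters. It had 19.9, 25.3, 29.5, 30.3 and 25.3 CPM in vismodegib libraries 1 to 5, against 11.1, 11.2, 11.5, 16.2 and 13.3 CPM in Ki67-negative and 20.4, 8.36, 10.2, 13.5 and 15.4 CPM in Ki67-positive libraries. All treated values were above all Ki67-negative ones, and Ki67-positive library 1 reached above vismodegib library 1. Log2 fold changes were 1.04 (SE 0.23, adjusted p = 0.0024, edgeR) against Ki67-negative and 0.94 (SE 0.23, adjusted p = 0.00536, edgeR) against Ki67-positive nests. Mrps28, at chr3:8802146-8923857, related to a bacterial protein of the small subunit, had 28.2, 19.4, 25.6, 25 and 19 CPM in vismodegib libraries 1 to 5, against 11.9, 12.7, 8.48, 16.2 and 11.4 CPM in Ki67-negative and 14.6, 9.16, 17.1, 17.1 and 10.5 CPM in Ki67-positive libraries. No untreated value reached the treated range, and the log2 fold changes were 0.95 (adjusted p = 0.00424, edgeR) against Ki67-negative and 0.77 (adjusted p = 0.0174, edgeR) against Ki67-positive nests.

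In the large subunit, Mrpl30, at chr1:37890477-37898338, a relative of a bacterial large subunit protein, had 35.1, 33, 36.7, 49.1 and 33.9 CPM in vismodegib libraries 1 to 5, against 21, 20.1, 14.5, 21 and 19.6 CPM in Ki67-negative and 29.2, 16.4, 19.96, 18.7 and 18.2 CPM in Ki67-positive libraries. Its treated values were all above its untreated ones, with vismodegib library 4 the highest and Ki67-positive library 1 the highest untreated. Log2 fold changes were 0.96 (SE 0.19, adjusted p = 0.000772, edgeR) against Ki67-negative and 0.87 (SE 0.19, adjusted p = 0.00187, edgeR) against Ki67-positive nests. Mrpl43, at chr19:45005014-45006442, a protein found only in mitochondria, had 31.8, 24.7, 30.1, 28.6 and 28.7 CPM in vismodegib libraries 1 to 5, against 16.3, 14.7, 14.7, 17.4 and 14.1 CPM in Ki67-negative and 22.7, 16.4, 17.3, 19.7 and 18.2 CPM in Ki67-positive libraries. Again no untreated value reached the treated range, and Ki67-positive library 1 came nearest. Log2 fold changes were 0.90 (SE 0.16, adjusted p = 0.000322, edgeR) and 0.61 (SE 0.16, adjusted p = 0.00746, edgeR) against Ki67-negative and Ki67-positive nests in that order. Twnk, the mitochondrial DNA helicase gene that overlaps Mrpl43 on the other strand, had log2 fold changes of 0.06 and 0.14 in the same comparisons, neither called (adjusted p = 0.828 and 0.616, edgeR).

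Mrpl52, at chr14:54426909-54429750, the highest member per length, had 56.3, 57.1, 74.5, 54.3 and 81.8 CPM in vismodegib libraries 1 to 5, against 36.9, 43.6, 32.9, 42.1 and 38.9 CPM in Ki67-negative and 43.3, 41.6, 42.1, 48.6 and 35.4 CPM in Ki67-positive libraries. Its lowest treated library exceeded its highest untreated one (log2 fold change 0.74, adjusted p = 0.00116 against Ki67-negative and 0.62, adjusted p = 0.00486 against Ki67-positive nests, edgeR). Mrpl54, at chr10:81264722-81266926, mitochondria-specific, averaged 15.7 ± 4.03 CPM after vismodegib, 7.25 ± 2.07 CPM in Ki67-negative and 8.85 ± 3.26 CPM in Ki67-positive libraries (SD, n = 5 each), with calls against both (log2 fold change 1.11, adjusted p = 0.00755 and 0.83, adjusted p = 0.0407, edgeR). Mrpl16, at chr19:11770415-11774956, a relative of a bacterial protein near the peptidyl transferase centre, averaged 25.8 ± 3.68 CPM after vismodegib, 17.7 ± 4.27 CPM in Ki67-negative and 16.5 ± 4.77 CPM in Ki67-positive libraries. It passed against the Ki67-positive group (higher, log2 fold change 0.64, adjusted p = 0.0436, edgeR), and its value of 0.54 against Ki67-negative nests missed the threshold (adjusted p = 0.0717, edgeR). Mrpl14 was called here too (log2 fold change 0.95, adjusted p = 0.0274, edgeR).

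The calls for Mrpl30, Mrpl43, Mrps14, Mrps24 and Mrps28 against Ki67-positive nests held under all 24 alternative settings run, each library left out in turn among them. The Mrpl16 call was lost in 12 of the 24, among them without vismodegib library 3, 4 or 5, Ki67-negative library 2 or Ki67-positive library 2, 3, 4 or 5 (adjusted p = 0.0502 to 0.106). The Mrpl54 call was lost in 12, among them without vismodegib library 3, 4 or 5 or Ki67-positive library 1, 2, 3 or 4 (adjusted p = 0.0555 to 0.11). The Mrpl14 call was lost without vismodegib library 1 or 3 or Ki67-positive library 1, 2 or 5 (adjusted p = 0.0532 to 0.0606). Leaving out Ki67-negative library 5, which is in neither group compared but enters the shared fit, gave 14 higher members in place of 9. The share of all genes called higher rose as well, to 14.9% from 12.6%.

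**Figure D3:**
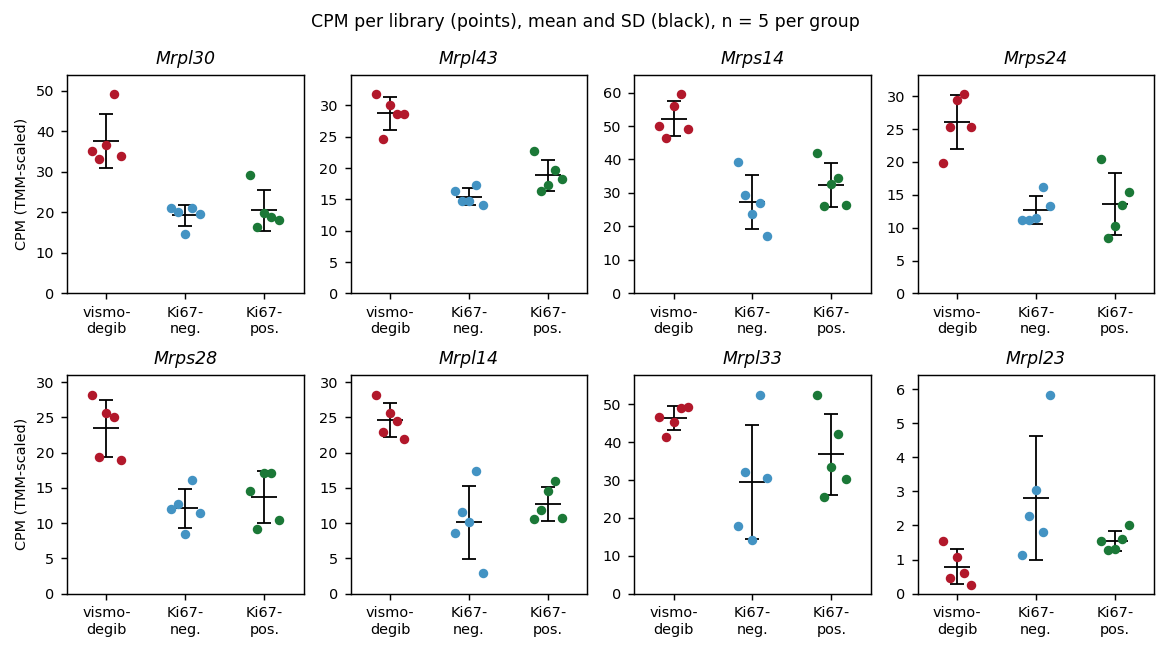
CPM of 8 members in each library (points), with the mean and SD of each group of 5 in black; each axis starts at 0. For Mrpl30, Mrpl43, Mrps14, Mrps24, Mrps28 and Mrpl14 the fitted vismodegib level is 1.52 to 2.43 times each untreated level, the Mrpl33 ranges overlap, and Mrpl23 has its lowest mean after vismodegib and 1 high Ki67-negative library of 5.83 CPM.

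The untreated groups were then compared with each other, Ki67-negative against Ki67-positive nests. No member was called, higher or lower, by edgeR, DESeq2 or voom. In edgeR 5 of 77 members had an unadjusted p under 0.05, as did 1154 of all 17282 genes tested. Of all genes tested, 0% were called higher and 0.174% lower (30 genes). The members leaned one way without passing the test: 63 had a negative value and 14 a positive one, with a median of −0.17, against 0.01 over all genes. With the length trend of each library removed, as described for gene length, the member median was −0.08 and that of all genes 0.02. Medians were −0.17 in both the large and the small subunit. Mrpl42 averaged 12 ± 3.8 CPM in the Ki67-negative group and 18.4 ± 5.78 CPM in the Ki67-positive group (SD, n = 5 each; log2 fold change −0.62, SE 0.26, adjusted p = 0.703, edgeR; unadjusted p 0.0293). For Mrpl30 the log2 fold change was −0.09 with a 95% interval from −0.50 to 0.32, and for Mrps24 −0.10 with an interval from −0.60 to 0.41. These intervals are not adjusted for the number of genes. They give the fold changes compatible with the data and are not a limit of detection. The Ki67-negative libraries were deposited after the rest, which are mixed in order, and any batch behind that cannot be told apart from the group.

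Members with particular roles mostly missed the threshold. The stalk proteins Mrpl10 and Mrpl12 averaged 30.7 ± 3.6 CPM after vismodegib, 20.03 ± 6.49 CPM in Ki67-negative and 25.4 ± 5.26 CPM in Ki67-positive libraries for Mrpl10 and 26.6 ± 4.94 CPM after vismodegib, 17.8 ± 5.47 CPM in Ki67-negative and 20.5 ± 5.07 CPM in Ki67-positive libraries for Mrpl12 (SD, n = 5 each). Against Ki67-negative nests Mrpl10 passed (log2 fold change 0.61, adjusted p = 0.0455, edgeR) and Mrpl12, which in human cells also binds the mitochondrial RNA polymerase, did not (log2 fold change 0.58, adjusted p = 0.0564, edgeR). The Mrpl10 call was lost in 16 of 24 alternatives, among them without vismodegib library 1, 3, 4 or 5, Ki67-negative library 1, 3 or 5 or Ki67-positive library 1, 3, 4 or 5 (adjusted p = 0.0505 to 0.103). Mrpl58, a peptidyl-tRNA hydrolase that frees stalled ribosomes and is built into the large subunit, averaged 14.2 ± 5.27 CPM after vismodegib, 13.7 ± 2.89 CPM in Ki67-negative and 16.1 ± 5.58 CPM in Ki67-positive libraries, with overlapping ranges and log2 fold changes of 0.06 and −0.18 (adjusted p = 0.901 and 0.689, edgeR). Mrpl13, a conserved protein of the large subunit, averaged 25.8 ± 4.46 CPM after vismodegib, 22.7 ± 3.8 CPM in Ki67-negative and 27.1 ± 5.66 CPM in Ki67-positive libraries, and its log2 fold changes were 0.18 and −0.07 (adjusted p = 0.492 and 0.82, edgeR). Mrps30, which despite its symbol belongs to the large subunit, averaged 24 ± 2.24 CPM after vismodegib, 16.1 ± 3.49 CPM in Ki67-negative and 18 ± 5.29 CPM in Ki67-positive libraries and was called against Ki67-negative nests (log2 fold change 0.58, adjusted p = 0.048, edgeR). That call was lost in 15 of 24 alternatives, among them without vismodegib library 1, 2, 3, 4 or 5, Ki67-negative library 1, 3, 4 or 5 or Ki67-positive library 3 or 4 (adjusted p = 0.0551 to 0.101).

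Mrps18a, Mrps18b and Mrps18c are paralogs related to a single bacterial protein. Mrps18a, placed in the large subunit, averaged 15.5 ± 3.64 CPM after vismodegib, 9.86 ± 3.55 CPM in Ki67-negative and 10.7 ± 2.98 CPM in Ki67-positive libraries (SD, n = 5 each). Mrps18c averaged 17.9 ± 5.09 CPM after vismodegib, 11.6 ± 4.09 CPM in Ki67-negative and 11.5 ± 1.72 CPM in Ki67-positive libraries, and Mrps18b 3.78 ± 0.589 CPM after vismodegib, 3.79 ± 1.67 CPM in Ki67-negative and 4.08 ± 1.8 CPM in Ki67-positive libraries. Log2 fold changes against Ki67-negative nests were 0.65 for Mrps18a, 0.00 for Mrps18b and 0.62 for Mrps18c, and none of the 3 was called (adjusted p = 0.0971, 0.998 and 0.0754, edgeR). Against Ki67-positive nests they were 0.52, −0.11 and 0.64, again uncalled (adjusted p = 0.199, 0.873 and 0.0778, edgeR). Whether the paralogs differ in their response was not tested.

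The ranges of the balance between the subunits overlapped in the 3 groups. Summed CPM of small subunit over large subunit members was 0.467, 0.468, 0.457, 0.463 and 0.452 in the vismodegib libraries, against 0.490, 0.494, 0.519, 0.425 and 0.523 in Ki67-negative and 0.468, 0.503, 0.500, 0.484 and 0.457 in Ki67-positive libraries. The treated values lay within the Ki67-negative range of 0.425 to 0.523, but only through Ki67-negative library 4, at 0.425. Ki67-negative libraries 1, 2, 3 and 5 exceeded every treated value. Treated libraries lay close together, and the Ki67-negative libraries spread most.

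Among the genes the mitochondrial ribosome works with, 3 families had most or many of their tested genes higher after vismodegib. Of all genes tested, 15.4% were higher than in Ki67-negative and 12.6% higher than in Ki67-positive nests. Of 80 cytoplasmic ribosomal protein genes tested, 50 were higher than in Ki67-negative and 47 higher than in Ki67-positive nests, with median log2 fold changes of 0.93 and 0.85. Of 62 nuclear genes for respiratory complexes I to IV, 44 and 25 were higher and 0 and 1 lower, with medians of 0.80 and 0.55. Of 7 testable protein-coding genes of the mitochondrial genome, whose messages the mitochondrial ribosome translates, 5 and 6 were higher, with medians of 0.81 and 1.02. The 13 such genes took 2.04 to 2.66% of counts after vismodegib, 0.791 to 1.90% in Ki67-negative and 0.844 to 1.44% in Ki67-positive libraries. Nearly all of these counts were in the 7 tested genes. The untested ATP6, ATP8, COX2, COX3, ND3 and ND4L had group means of at most 0.716 CPM, for a reason that was not tested. The cytoplasmic ribosomal and respiratory genes are shorter than the members, with median lengths of 0.240 and 0.242 of the median tested gene, against 0.363 for the members. With the length trend removed, 40 and 40 cytoplasmic ribosomal genes were higher (medians 0.68 and 0.65), 36 and 16 respiratory genes were higher and 1 and 1 lower (medians 0.55 and 0.42), and 3 and 6 genes of the mitochondrial genome were higher, against Ki67-negative and Ki67-positive nests in that order. With that trend removed, 15.5% and 13.7% of all genes were higher in the same order. Differences between the families were not tested.

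**Figure D4:**
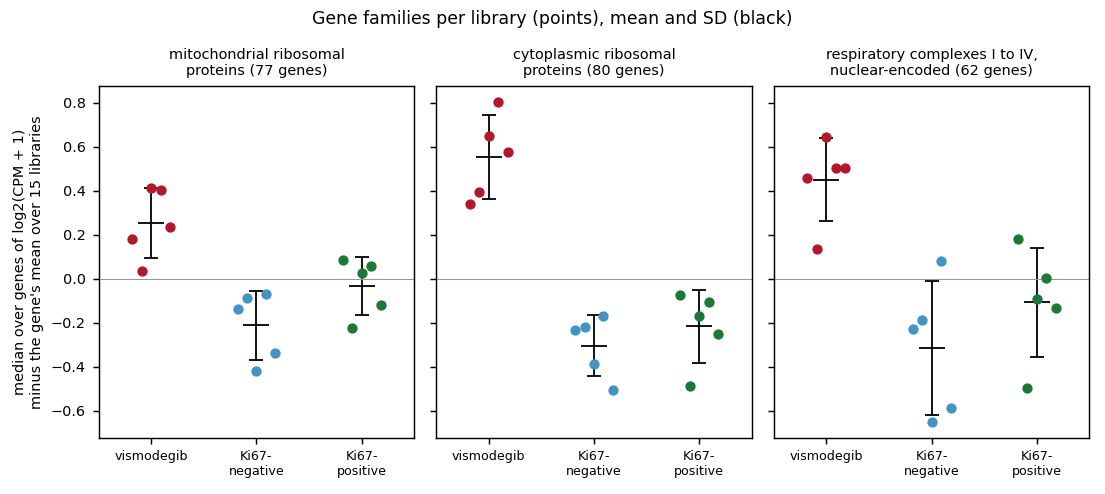
Each point is a library: the median over the genes of a family of log2(CPM + 1) minus the gene's mean over the 15 libraries, with the mean and SD of each group of 5 in black. Members average 0.25 after vismodegib, −0.21 in Ki67-negative and −0.03 in Ki67-positive libraries; cytoplasmic ribosomal protein genes average 0.55, −0.30 and −0.22, and respiratory genes 0.45, −0.32 and −0.11.

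Few genes that build or serve the mitochondrial ribosome passed the test, beside 15.4% of all genes higher and 16.5% lower against Ki67-negative nests and 12.6% and 13.4% against Ki67-positive nests. Of 5 other subunits without an Mrpl or Mrps symbol, 0 were called against Ki67-negative nests by edgeR, DESeq2 or voom. In edgeR 1 of the 5 had an unadjusted p under 0.05 there, as did 7341 of all 17282 genes. Against Ki67-positive nests DESeq2 and voom each called 2 higher, and edgeR called 1. That 1 was Aurkaip1, a small subunit protein, with 29.9 ± 9.89 CPM after vismodegib, 22.2 ± 6.33 CPM in Ki67-negative and 16 ± 3.21 CPM in Ki67-positive libraries (SD, n = 5 each; log2 fold change 0.91, adjusted p = 0.0132, edgeR). Of 24 assembly factors, 1 rose and 1 fell against Ki67-negative nests by edgeR. Mrm1, a methyltransferase of the large ribosomal RNA, rose (log2 fold change 1.12, adjusted p = 0.00777, edgeR). Dhx30, an RNA helicase, fell (log2 fold change −0.55, adjusted p = 0.00881, edgeR). In that comparison DESeq2 called 2 assembly factors higher and voom 3, and each called 1 lower. Against Ki67-positive nests only Dhx30 was called (log2 fold change −0.47, adjusted p = 0.0263, edgeR). That call was lost in 7 of 24 alternatives. Among them were fits without vismodegib library 1, 3 or 4 or Ki67-positive library 2 or 5 (adjusted p = 0.0588 to 0.0783, edgeR). Of 14 translation factors, only Guf1, a GTPase, was called, and it fell in both comparisons (log2 fold change −0.48 against Ki67-negative, adjusted p = 0.0464, and −0.70 against Ki67-positive, adjusted p = 0.00648, edgeR). The Guf1 call against Ki67-negative nests was lost in 16 of 24 alternatives, among them without vismodegib library 1, 3 or 5, Ki67-negative library 1, 2, 3 or 5 or Ki67-positive library 1, 3, 4 or 5 (adjusted p = 0.0512 to 0.116).

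Of 20 mitochondrial aminoacyl-tRNA synthetases and related enzymes, 0 rose and 3 fell (15%) against Ki67-negative nests. Against Ki67-positive nests 1 rose and 1 fell, and the medians were −0.17 and −0.29 in that order. Of all genes tested, 15.4% were higher and 16.5% lower against Ki67-negative nests, and 12.6% and 13.4% against Ki67-positive nests. The share of synthetases that fell against Ki67-negative nests was thus near that of all genes. Wars2, which charges tryptophan tRNA, had 22.7 ± 5.95 CPM after vismodegib, 52.1 ± 4.49 CPM in Ki67-negative and 44.4 ± 8.37 CPM in Ki67-positive libraries (SD, n = 5 each) and fell in both (log2 fold change −1.20, adjusted p = 0.000114, and −0.96, adjusted p = 0.000914, edgeR). Tars2 and Gatb fell against Ki67-negative nests (log2 fold change −0.65, adjusted p = 0.0094, and −0.70, adjusted p = 0.0357, edgeR). The Gatb call was lost in 6 of 24 alternatives. Among them were fits without vismodegib library 1, 2, 3 or 4 or Ki67-negative library 5 (adjusted p = 0.0687 to 0.125, edgeR). Iars2 rose against the Ki67-positive group (log2 fold change 0.38, adjusted p = 0.0363, edgeR). Its call was lost in 12 of 24 alternatives. Among them were fits without vismodegib library 1, 2, 4 or 5 or Ki67-positive library 2, 3, 4 or 5 (adjusted p = 0.0513 to 0.0976, edgeR). None of 12 genes for transcription and upkeep of mitochondrial DNA was called by edgeR or voom in either comparison. DESeq2 called 0 against Ki67-negative and 1 against Ki67-positive nests. In edgeR 2 of the 12 had an unadjusted p under 0.05 in each, as did 7341 and 6465 of all 17282 genes in that order. Of 10 regulators of mitochondrial biogenesis, 1 rose and 1 fell in each by edgeR, while DESeq2 and voom each called 2 lower against Ki67-negative nests. Ppargc1a, the coactivator PGC-1α, had 47.8 ± 17.2 CPM after vismodegib, 19.6 ± 6.52 CPM in Ki67-negative and 17.5 ± 3.4 CPM in Ki67-positive libraries and rose in both (log2 fold change 1.29, adjusted p = 0.00148, and 1.45, adjusted p = 0.000617, edgeR). Its relative Pprc1 fell against Ki67-negative nests (log2 fold change −0.78, adjusted p = 0.0135, edgeR). Mycn, a Myc family factor, fell against the Ki67-positive group (log2 fold change −1.19, adjusted p = 0.0365, edgeR). The Mycn call was lost in 9 of 24 alternatives. Among them were fits without vismodegib library 1 or 5 or Ki67-positive library 2, 3, 4 or 5 (adjusted p = 0.0521 to 0.0843, edgeR).

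Gene-model length moved with these results. The members are short: their median length was 0.363 of the median tested gene, and 58 of the 77 were in the shortest of 4 equal length classes of all genes. In that class 19.9% of all genes were higher after vismodegib than in Ki67-negative nests and 14.2% higher than in Ki67-positive nests, with median log2 fold changes of 0.16 and 0.12. The 58 members there had 21 and 8 higher calls and medians of 0.55 and 0.35. With the length trend of each library removed, an alternative chosen after the data were seen, 17 members stayed higher and 1 lower against Ki67-negative nests, with a member median of 0.30. All 17 were among the 27. Against Ki67-positive nests 6 of the 9 stayed (Mrpl14, Mrpl30, Mrpl43, Mrps14, Mrps24 and Mrps28), with a median of 0.19. Under that setting 15.5% of all genes were higher than in Ki67-negative and 13.7% higher than in Ki67-positive nests. The 17 of 77 members lay above the first share, and the 6 of 77 below the second.

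**Figure D5:**
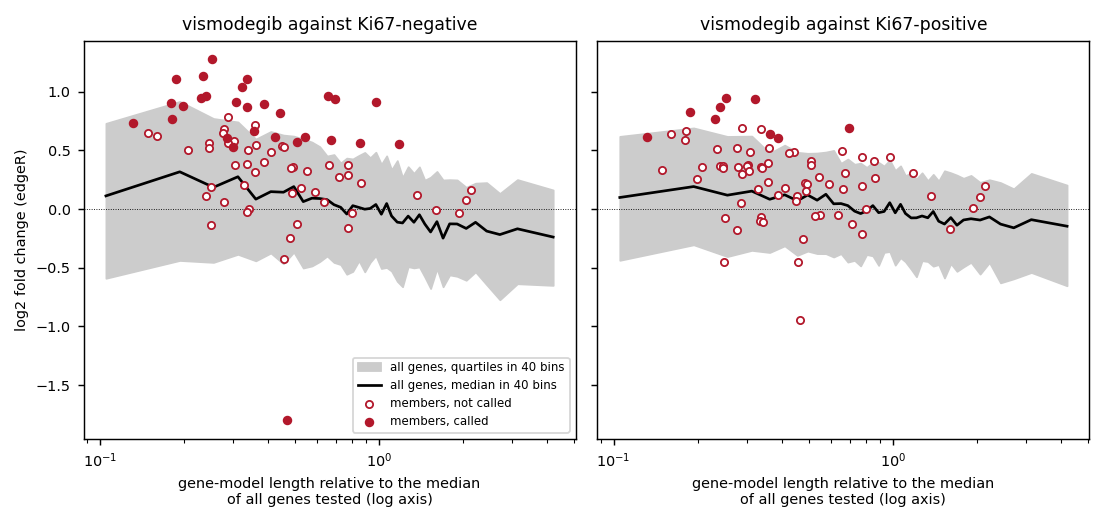
Log2 fold change (edgeR) against gene-model length relative to the median tested gene, on a log axis, with the members as red points (filled where called) and all genes as the median and quartiles of 40 bins of equal size. In the comparison with Ki67-negative nests the median of all genes is 0.16 in the shortest and −0.16 in the longest of 4 equal length classes, and 58 of the 77 members lie in the shortest.

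Overlapping genes bear on other members as well. RefSeq places 25 of the 78 members over another annotated gene and lists a pseudogene of the same name for 4. The sources used here do not state whether counting used strand. Of the members called against Ki67-positive nests, Mrpl14, Mrpl43 and Mrps28 overlap another gene, and Mrpl30, Mrps14, Mrps24, Mrpl16, Mrpl52 and Mrpl54 overlap none in that annotation. Against Ki67-negative nests, 2 more members called higher overlap a gene on the other strand that was also called higher, and are named after their values were seen. Mrpl57 overlaps Ska3 (log2 fold change 1.07, adjusted p = 0.00256, edgeR). Mrps7 overlaps Mif4gd (log2 fold change 0.98, adjusted p = 0.00616, edgeR) and also Gga3, which fell (log2 fold change −0.63, adjusted p = 0.0278, edgeR). As for Mrpl18 and Tcp1, reads of these pairs cannot be told apart without stated strand. Ighmbp2, a helicase gene over Mrpl21 on the other strand, was not called (log2 fold change −0.48 against Ki67-negative nests, adjusted p = 0.32, edgeR).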

How the data were processed

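Polyadenylated RNA of 15 libraries in 3 groups of 5 was analysed. Reads were aligned with GSNAP to GRCm38, per the submitters' processing notes, and per the file headers the deposited counts are uniquely aligned reads of each gene model. The deposited nRPKM are, by the same headers, RPKM over each library's size factor, and were used only for levels between genes and for relative gene-model length. Aligner version, annotation and strand use: not given in the sources used here. Of 36528 NCBI identifiers, 31049 matched a RefSeq symbol (GRCm38.p6).

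Counts were scaled by TMM, filtered by filterByExpr (minimum count 10, minimum total 15; 17282 genes kept) and tested with the two-sided quasi-likelihood F test of edgeR 4.0.16 (R 4.3.3, robust) in 1 fit of 15 libraries without covariates (12 residual degrees of freedom). P-values were adjusted by Benjamini-Hochberg over all genes and called under 0.05. The standard error is the log2 fold change divided by the square root of F. CPM use TMM-scaled totals, and depth was 4887381 to 10328822 counts, with a common biological coefficient of variation of 0.348. Tests were checked on simulated counts with planted changes larger than those called for members here. That check does not bear on power or error at the sizes reported. Alternatives were DESeq2 1.42.0, voom (limma 3.58.1), other scalings and filters, the 2 groups alone, a covariate for Xist above Ddx3y, a length correction and each library left out.

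Members and gene lists were chosen with earlier results of these data known. Members named are all called ones, or the 12 largest rises and falls where over 24 were called, the 3 highest and 3 lowest per kilobase, and a set fixed by name (Mrps18a, Mrps18b, Mrps18c, Mrpl10, Mrpl12, Mrps30, Mrpl58, Mrps36 and Mrpl13). From each related list, up to 4 called genes were named, and genes that overlap a member were named after their values were seen.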

Additional observations from a re-analysis of the deposited data

Results flagged for a closer look

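In 8 of 87 groups of 5 values tested, 1 library stood far from the other 4 by Dixon's criterion on the gap over the range, and chance alone gives about 1 in 20. The groups were the CPM of the 28 named members and the summed CPM of the members in each of 3 groups. Mrpl18 had 12.2 CPM in vismodegib library 2, against 20.6 to 23.9 CPM in the other 4 treated libraries. Mrpl30 had 49.1 CPM in vismodegib library 4, against 33.0 to 36.7 CPM in the others, 14.5 CPM in Ki67-negative library 3, against 19.6 to 21.0 CPM, and 29.2 CPM in Ki67-positive library 1, against 16.4 to 19.96 CPM. In Ki67-negative library 5, Mrpl13 had 16.01 CPM, against 23.6 to 25.1 CPM, and Mrpl21 had 4.64 CPM, against 12.7 to 16 CPM. In Ki67-positive library 2, Mrpl10 had 16.4 CPM, against 25.9 to 29.5 CPM, and Mrpl11 had 10.3 CPM, against 16.2 to 17.7 CPM. The summed CPM of the members was not set apart in any library.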

How the results depend on the processing

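Over 24 alternatives, the count of members called against Ki67-negative nests was 28 (27 higher, 1 lower) as reported and 18 to 31 with 1 library left out, lowest without vismodegib library 3 (18). With the length trend removed it was 18, and the member median 0.30 in place of 0.53. Against Ki67-positive nests it was 9 as reported, 6 to 14 with 1 library left out, highest without Ki67-negative library 5 (14), and 14 with the 2 groups alone in the fit, with Mrpl23 lower only when Xist status was a covariate. The share of all genes called higher moved too. Against Ki67-negative nests it was 15.4% as reported, 12.8% without vismodegib library 3 and 15.5% with the length trend removed. Against Ki67-positive nests it was 12.6% as reported and 14.9% without Ki67-negative library 5. It was 15.3% there with the 2 groups alone and 13.7% with the length trend removed. The causes were not tested. Between the untreated groups the count of members called was 0 in every alternative, and the member median was −0.08 with the length trend removed, in place of −0.17. Member medians kept their sign throughout, and 14 calls against Ki67-negative nests held under all 24: Mrpl11, Mrpl14, Mrpl18, Mrpl21, Mrpl30, Mrpl42, Mrpl43, Mrpl52, Mrpl53, Mrpl54, Mrps14, Mrps24, Mrps28 and Mrps35 (Mrpl53 and Mrps35 named after their values were seen). With 5 libraries per group and 173 counts in all, depth limits Mrpl23, and Mrps36 could not be tested. No paired analysis was possible because the labels give no replicate numbers.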
